A study of Homo sapiens with 9 samples.

Results

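The genes described here are 42 known genes of the erythroid and megakaryocytic lineages, namely lineage transcription factors, globins, enzymes of haem synthesis, red cell membrane proteins and platelet proteins. They were chosen from a list of such genes and matched by symbol among 60605 genes, and all 42 were found. RNA was sequenced from KG-1a, a human acute myeloid leukaemia line, in 3 groups of 3 libraries: PRMT2 knockout clone 1, PRMT2 knockout clone 2 and PRMT2 wild-type cells (WT). Each knockout group is 1 CRISPR/Cas9 clone, no drug was given to any group, and no source says whether the wild-type cells were also grown from a single cell. No source says whether replicates were separate cultures, so the p-values measure the spread between these libraries, which may be technical, and not the spread between clones.

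Erythroid cells are made from progenitors in which GATA1 and TAL1, held together with LMO2 and LDB1, turn on the globin, haem and membrane genes, and KLF1 drives adult globin. Megakaryocytes come from the same progenitors and share GATA1, its cofactor FOG1 (gene ZFPM1) and the repressor GFI1B, before they switch on the platelet glycoproteins and granule proteins. PRMT2 is a protein arginine methyltransferase.

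Libraries held 28006342 to 43149410 read pairs assigned to a gene on the strand of its RNA, which were 25.9% to 29.6% of all pairs. Levels are given in CPM, read pairs per 1000000 after scaling, in which fewer cells of a type and less RNA per cell cannot be told apart. PRMT2 was at 21.3, 20.2 and 20.7 CPM in clone 1, at 21.4, 21.1 and 21.2 CPM in clone 2 and at 39.4, 39.0 and 39.8 CPM in WT, so all knockout libraries were lower and none was without PRMT2 RNA. KO clone 1 replicate 1 stood apart, since 13.3% of its pairs had several mapping places, and the other libraries had 3.86% to 4.51%. Its gene counts also differed more from those of its group. Chi-squared per degree of freedom was 47.3 and 46.4 against the other clone 1 libraries. Other pairs of libraries within a group had 2.51 to 5.07. Without KO clone 1 replicate 1 the counts of called members given below were the same. As markers of the line, CD34 averaged 735 CPM in clone 1, 765 in clone 2 and 626 in WT and ANPEP, the myeloid surface enzyme CD13, averaged 615, 644 and 585 CPM. The myeloid factor CEBPA averaged 17.7 CPM in clone 1, 15.7 in clone 2 and 42.2 in WT, and the myeloid markers MPO, CD33 and FLT3 each averaged under 0.5 CPM in every group. Of 9 T and NK cell markers, 5 were tested and 3 were called lower in both clones. Over all tested genes, 3.04% were called lower in both clones. The 9 markers summed to 180 to 187 CPM in clone 1, 238 to 254 in clone 2 and 447 to 475 in WT. Monocyte and granulocyte markers, with 3 of 8 tested and 0 called lower in both clones, summed to 61.5 to 65.0 CPM in clone 1, 69.4 to 72.9 in clone 2 and 127 to 133 in WT. Most of that sum was CSF3R, which averaged 55.4 CPM in clone 1, 62.5 in clone 2 and 120 in WT. Mast cell markers, with 5 of 5 tested and 2 called lower in both clones, summed to 27.0 to 29.5 CPM in clone 1, 33.0 to 35.8 in clone 2 and 65.3 to 68.8 in WT. Most of that sum was CPA3, which averaged 25.7 CPM in clone 1, 30.5 in clone 2 and 64.0 in WT. MS4A2 had higher means in the clones, at 0.856, 2.17 and 0.521 CPM in the same order. At an edgeR adjusted p under 0.05, 0 mast cell markers were higher in clone 1 and 1 was higher in clone 2. The median log2 fold change of the mast cell markers was 0.70 in clone 1 and -0.21 in clone 2. The part of these cell type markers in the results below was not tested.

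In KG-1a cells only part of the erythroid and megakaryocytic programme had enough counted RNA to be tested. Of the 42 members, 20 passed the filter on low counts, which asks for about 0.265 CPM in at least 3 libraries, and 22 did not. The tested members with the highest WT levels per kilobase of exon were GYPC (glycophorin C, a membrane anchor) at 85.1 CPM per kilobase, TFRC (the transferrin receptor, which takes up iron) at 48.2, RHAG (the Rh-associated glycoprotein of the red cell membrane) at 35.3 and GFI1B at 29.8. SPTB (the beta chain of red cell spectrin) was the lowest at 0.0588 CPM per kilobase, below GATA1 at 0.120 and GP6 (the platelet collagen receptor) at 0.135. Globin RNA was near the limit of detection: the 7 globin genes together had 37 counts over the 9 libraries.

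A gene was said to rise or fall at a Benjamini-Hochberg adjusted p under 0.05 from edgeR's quasi-likelihood test over 20655 genes, and was called where the log2 fold change was also at least 1 in size. In clone 1, 2 of the 20 tested members were called and both were higher, SPTB and F2R, beside 7.58% of all tested genes called, 2.6% higher and 4.98% lower. In clone 2, 4 members were called and all were higher, SPTB, F2R, GATA1 and GP6, beside 5.96% of genes called, 1.83% higher and 4.13% lower. The mean of both clones against WT called the same 4 members, beside 6.53% called, 2.0% higher and 4.53% lower. GATA1 was above the filter in 2 libraries of clone 1, 3 of clone 2 and 0 of WT, so it could be tested only through the knockout libraries. At the adjusted p alone, 8 members rose and 4 fell in clone 1, beside 17.4% and 18.8% of all genes, and 9 rose and 5 fell in clone 2, beside 14.4% and 16.1%. In the mean of both clones 10 rose and 5 fell, beside 16.4% and 18.9%. In both clones 6 rose (SPTB, F2R, GFI1B, RHAG, UROD and ZFPM1) and 3 fell (PLEK, TFRC and UROS), beside 8.52% and 11.0% of all genes. Both comparisons use the same WT libraries.

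**Figure D1:**
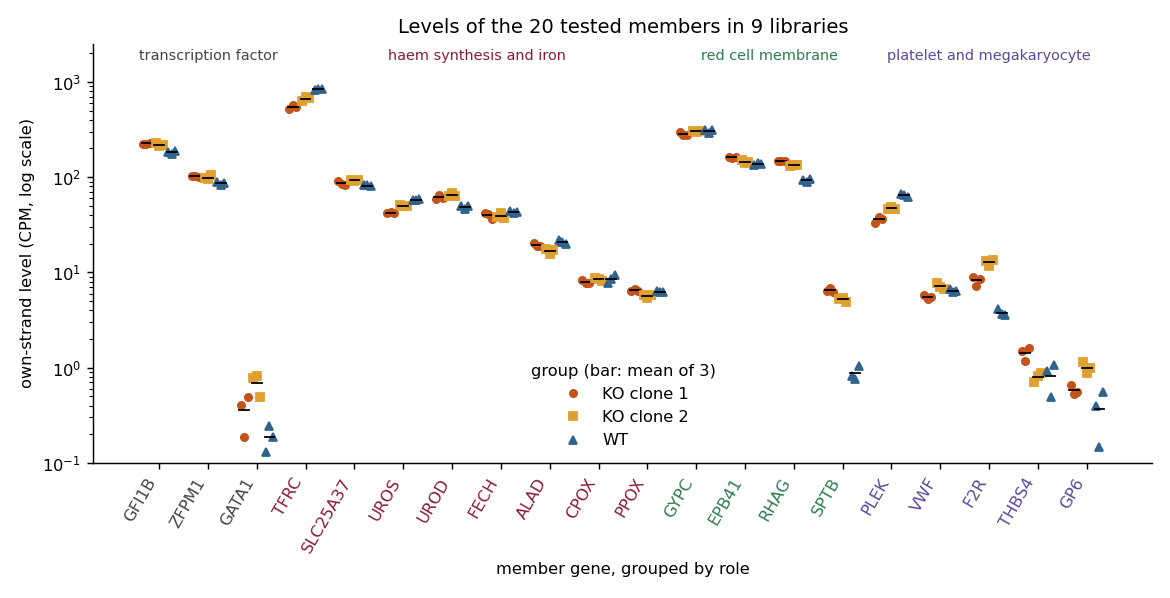
Own-strand levels (CPM, log axis) of the 20 tested members in each of the 9 libraries, with gene names coloured by role and a bar at the mean of 3 libraries. SPTB lies between 4.93 and 6.86 CPM in the knockout libraries and between 0.756 and 1.05 CPM in WT, whereas TFRC lies lower in every knockout library than in WT.

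Promoter letters are shown for the called members found in RefSeq's promoter table (GRCh38.p14) and for RHAG, the abundant red cell gene that rose in both clones. Each run is the 250 bases before the RefSeq start, read 5′ to 3′ on the strand of the gene. Capitals mark matches on either strand to the GATA motif (AGATAA and also AGATAG, with TGATAA as well as TGATAG) or to a CACCC-type motif (CCNCNCCC), the letters that GATA1 and KLF1 are known to bind. Overlapping matches were merged into 1 run of capitals.
GATA1 promoter, chrX:48786340-48786589, plus strand: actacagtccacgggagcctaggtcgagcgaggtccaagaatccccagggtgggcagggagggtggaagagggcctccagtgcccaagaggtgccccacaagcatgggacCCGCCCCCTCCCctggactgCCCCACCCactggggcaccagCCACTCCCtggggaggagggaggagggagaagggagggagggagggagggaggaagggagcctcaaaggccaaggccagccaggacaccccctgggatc
SPTB promoter, chr14:64879908-64880157, minus strand: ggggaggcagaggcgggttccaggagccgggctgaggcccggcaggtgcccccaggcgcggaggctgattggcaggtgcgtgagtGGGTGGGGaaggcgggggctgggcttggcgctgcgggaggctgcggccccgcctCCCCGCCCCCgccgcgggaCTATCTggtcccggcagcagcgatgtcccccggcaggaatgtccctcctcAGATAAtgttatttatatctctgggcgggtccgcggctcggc
GP6 promoter, chr19:55038265-55038514, minus strand: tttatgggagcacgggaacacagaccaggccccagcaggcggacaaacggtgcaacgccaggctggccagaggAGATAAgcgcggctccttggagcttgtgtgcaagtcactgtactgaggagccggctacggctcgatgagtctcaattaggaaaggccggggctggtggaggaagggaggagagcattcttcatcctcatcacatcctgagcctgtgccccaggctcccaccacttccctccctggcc
RHAG promoter, chr6:49636840-49637089, minus strand: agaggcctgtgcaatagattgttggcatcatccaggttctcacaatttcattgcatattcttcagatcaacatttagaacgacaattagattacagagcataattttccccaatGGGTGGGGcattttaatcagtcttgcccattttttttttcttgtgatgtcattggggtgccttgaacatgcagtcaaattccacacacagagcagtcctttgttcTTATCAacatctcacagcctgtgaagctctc
The SPTB window held 2 GATA matches, whose first bases lie at -92 and -42 from the start, and 3 CACCC-type matches. GP6 held 1 GATA match at -177 and no CACCC-type match. RHAG held 1 GATA match at -31 and 1 CACCC-type match at -136. The GATA1 window held no GATA match and 4 CACCC-type matches. Of the 42 members, 26 were found in the table, and 14 of them (53.8%) held a GATA match and 16 (61.5%) a CACCC-type match. Among 27305 promoters of the same length the shares were 22.9% and 52.4%. A match of letters is a description of the window and does not show that a factor binds there.

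Among the transcription factors, GFI1B and ZFPM1 were abundant and slightly higher in both clones, whereas GATA1 was scarce and was called in clone 2. GFI1B (ENSG00000165702, GRCh38 chromosome 9, 132944000 to 132991687), a zinc finger repressor needed for red cells and platelets, was at 225, 225 and 228 CPM in clone 1, 228, 212 and 219 CPM in clone 2 and 183, 174 and 190 CPM in WT. All 6 knockout libraries were above the WT libraries. It rose by 0.31 on the log2 scale in clone 1 (standard error 0.033, adjusted p = 1.77e-10) and by 0.27 in clone 2 (standard error 0.033, adjusted p = 7.03e-09). ZFPM1, the GATA1 cofactor, averaged 102 ± 1.99 CPM in clone 1, 98.9 ± 5.25 CPM in clone 2 and 86.9 ± 3.13 CPM in WT (SD, n = 3 libraries each) and rose by 0.23 and 0.19 in the clones.

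GATA1 (ENSG00000102145, chromosome X, 48786540 to 48794311) had 11, 6 and 16 counts in clone 1, 32, 31 and 21 counts in clone 2 and 5, 10 and 6 counts in WT. Clone 2 libraries were all above WT, and the lowest clone 1 library overlapped WT. Scaled, this was 0.403, 0.186 and 0.491 CPM in clone 1, 0.776, 0.827 and 0.491 CPM in clone 2 and 0.130, 0.244 and 0.185 CPM in WT. Its log2 fold change was 1.87 in clone 2 (standard error 0.417, edgeR adjusted p = 0.000421) and 0.92 in clone 1 (standard error 0.48, adjusted p = 0.137). The clones themselves did not differ past the threshold, with a difference of 0.95 and a 95% interval of 0.00 to 1.89 (adjusted p = 0.0676). Without KO clone 1 replicate 2 the clone 1 value was 1.25 and called, so at this depth the call in clone 1 turns on 1 library. KLF1, the erythroid activator of adult globin, had 5 counts over all 9 libraries and was not tested.

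Partners of these factors were named from a list of 30 other lineage regulators. TAL1, which binds with GATA1 and rose 10.1-fold in clone 1 and 9.45-fold in clone 2, was at 73.5, 67.3 and 75.2 CPM in clone 1, 67.5, 66.9 and 67.5 CPM in clone 2 and 6.47, 7.36 and 7.55 CPM in WT. GATA2, the progenitor relative of GATA1, averaged 221 CPM in clone 1, 236 in clone 2 and 201 in WT, and rose by 0.14 and 0.23 on the log2 scale. In that list 29 genes were tested, 2 were called higher in both clones, TAL1 among them, and 1 was called lower in both, KLF3, beside 1.3% and 3.04% of all genes. KLF3, a repressor of the KLF family, averaged 0.133 and 0.0345 CPM in the clones and 8.57 CPM in WT. The list's median log2 fold change was 0.12 in clone 1 and 0.05 in clone 2, beside 0.0013 and -0.00013 over all tested genes.

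Globin genes were close to silent in every group. HBA2, HBB, HBD and AHSP, the chaperone of alpha globin, had 0 counts in all 9 libraries, which allows a level of up to 0.0701 to 0.110 CPM per library (3 counts, counting error only). HBZ, the embryonic zeta globin, had 6, 1 and 3 counts in clone 1, 0, 3 and 3 in clone 2 and 5, 4 and 0 in WT. HBG1, a fetal gamma globin, had 0, 4 and 0 counts in clone 1, 0, 4 and 1 in clone 2 and 0, 0 and 1 in WT. HBA1 had 1 count and HBG2 1 count over all libraries. None of these genes could be tested, and no group stood above the others. Pairs that map to several places were not counted, and 79.7% of the 100-base windows of the HBA1 transcript also occur in HBA2, so alpha globin counts are uncertain. The same share was 53.9% for HBG1 in HBG2 and 0 of 529 windows for HBB in HBD. HBG1 and HBG2 also share 218 and 431 exon bases with another gene on their strand, and HBG2 shares exon bases with further genes there. HBD shares 88 exon bases with HBBP1 and HBZ shares 205 with HBM, each on the same strand. Counts of HBG1, HBG2, HBD and HBZ may therefore be too low.

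Most enzymes of haem synthesis were present at levels that moved little, and TFRC fell in both clones. ALAS2, the erythroid form of the first enzyme, had 0 to 4 counts per library and was not tested. UROS and UROD, which act in succession in the middle of the pathway, moved in opposite directions. UROS was at 42.1, 42.9 and 41.8 CPM in clone 1, 51.1, 49.3 and 49.7 CPM in clone 2 and 58.1, 56.9 and 58.5 CPM in WT. The 3 groups did not overlap. UROS fell by 0.45 in clone 1 (standard error 0.042, adjusted p = 7.86e-12) and by 0.21 in clone 2 (standard error 0.041, adjusted p = 7.55e-05). UROD was at 59.6, 65.2 and 60.4 CPM in clone 1, 63.0, 67.7 and 63.9 CPM in clone 2 and 50.1, 46.0 and 49.7 CPM in WT, so all knockout libraries were above WT. It rose by 0.35 (standard error 0.045, adjusted p = 2.5e-08) and 0.42 (standard error 0.044, adjusted p = 2.4e-10).

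TFRC (ENSG00000072274, chromosome 3, 196012511 to 196082153), the most abundant member per library, was at 523, 576 and 551 CPM in clone 1, 630, 690 and 673 CPM in clone 2 and 819, 851 and 843 CPM in WT. Every clone 1 library was below every clone 2 library, and both were below WT. The log2 fold change was -0.61 in clone 1 (standard error 0.041, adjusted p = 2.98e-16) and -0.33 in clone 2 (standard error 0.04, adjusted p = 7.05e-09). ALAD, the second enzyme, fell by 0.31 in clone 2 (adjusted p = 0.000233), whereas it was -0.10 in clone 1 (adjusted p = 0.252). FECH, which inserts the iron, fell by 0.13 in clone 2 (adjusted p = 0.0446), whereas it was -0.11 in clone 1 (adjusted p = 0.101). SLC25A37, the mitochondrial iron importer, rose by 0.18 in clone 2 (adjusted p = 0.000149), whereas it was 0.08 in clone 1 (adjusted p = 0.078). CPOX and PPOX, the oxidases between UROD and FECH, lay between -0.15 and 0.06 in the clones and did not pass the threshold in either.

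All 32 other genes of haem and iron handling were tested, and 1 was called higher and 1 lower in both clones, beside 1.3% and 3.04% of all genes. HMOX1, the inducible haem oxygenase that breaks haem down, averaged 25.5 ± 0.638 CPM in clone 1, 24.2 ± 1.39 CPM in clone 2 and 11.7 ± 0.205 CPM in WT, log2 fold changes of 1.13 in clone 1 and 1.05 in clone 2 (adjusted p = 5.63e-18 and 4.92e-17). ABCG2, a transporter that can export porphyrins, averaged 0.506 ± 0.0612, 0.697 ± 0.136 and 1.96 ± 0.483 CPM in the same order and fell by 1.95 and 1.51. The median log2 fold change of the list was -0.05 in clone 1 and -0.03 in clone 2.

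The red cell membrane genes split into abundant members and members near 0. RHAG (ENSG00000112077, chromosome 6, 49605175 to 49636839), whose promoter letters are shown above, was at 148 CPM in each of the 3 clone 1 libraries, at 130, 135 and 134 CPM in clone 2 and at 94.0, 88.4 and 96.4 CPM in WT. The 3 groups did not overlap. RHAG rose 1.60-fold in clone 1 (log2 0.68, standard error 0.034, adjusted p = 3.11e-20) and 1.43-fold in clone 2 (log2 0.52, standard error 0.034, adjusted p = 1.8e-16), short of the fold that a call asks for. EPB41, the protein 4.1 that ties spectrin to actin, was at 162, 158 and 164 CPM in clone 1, 151, 140 and 146 CPM in clone 2 and 136, 139 and 139 CPM in WT. It rose by 0.23 in clone 1 (adjusted p = 1.84e-07), whereas it was 0.08 in clone 2 (adjusted p = 0.0654). GYPC fell by 0.12 in clone 1 (adjusted p = 0.00688), whereas it was -0.02 in clone 2 (adjusted p = 0.74). GYPB, EPB42 and SLC4A1, which encode glycophorin B, protein 4.2 and band 3, had at most 9 counts in a library and were not tested. GYPB had 0 counts in each clone 1 library, 3, 1 and 0 in clone 2 and 9, 1 and 2 in WT.

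SPTB (ENSG00000070182, chromosome 14, 64746283 to 64879907) had the largest fold change of the 20 tested members. It was at 6.44, 6.86 and 6.29 CPM in clone 1, 5.28, 5.44 and 4.93 CPM in clone 2 and 0.809, 0.756 and 1.05 CPM in WT. All knockout libraries lay far above WT, and clone 1 lay above clone 2. The change was 7.56-fold in clone 1 (log2 2.92, standard error 0.155, adjusted p = 1.58e-19) and 6.04-fold in clone 2 (log2 2.59, standard error 0.155, adjusted p = 1.13e-17). Counts taken without regard to strand gave a log2 fold change of 0.26 in clone 1 and 0.21 in clone 2. Those counts leave out pairs over exons shared with PLEKHG3, a gene on the other strand described below. ANK1, the ankyrin that joins spectrin to band 3, had 5, 4 and 3 counts in clone 1, 2, 0 and 0 in clone 2 and 0, 2 and 0 in WT, too few to be tested. In the list of 33 other red cell membrane and blood group genes, 22 were tested, 0 were called higher and 1 was called lower in both clones, a count near the 1.3% and 3.04% of all genes. The list's median log2 fold change was 0.02 in clone 1 and -0.02 in clone 2. The gene called lower was ADD3, a relative of the red cell adducins, at 15.1 ± 1.45 CPM in clone 1, 20.1 ± 0.99 CPM in clone 2 and 65.4 ± 1.87 CPM in WT, log2 fold changes of -2.12 in clone 1 and -1.70 in clone 2 (adjusted p = 2.93e-29 and 9.17e-27).

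**Figure D2:**
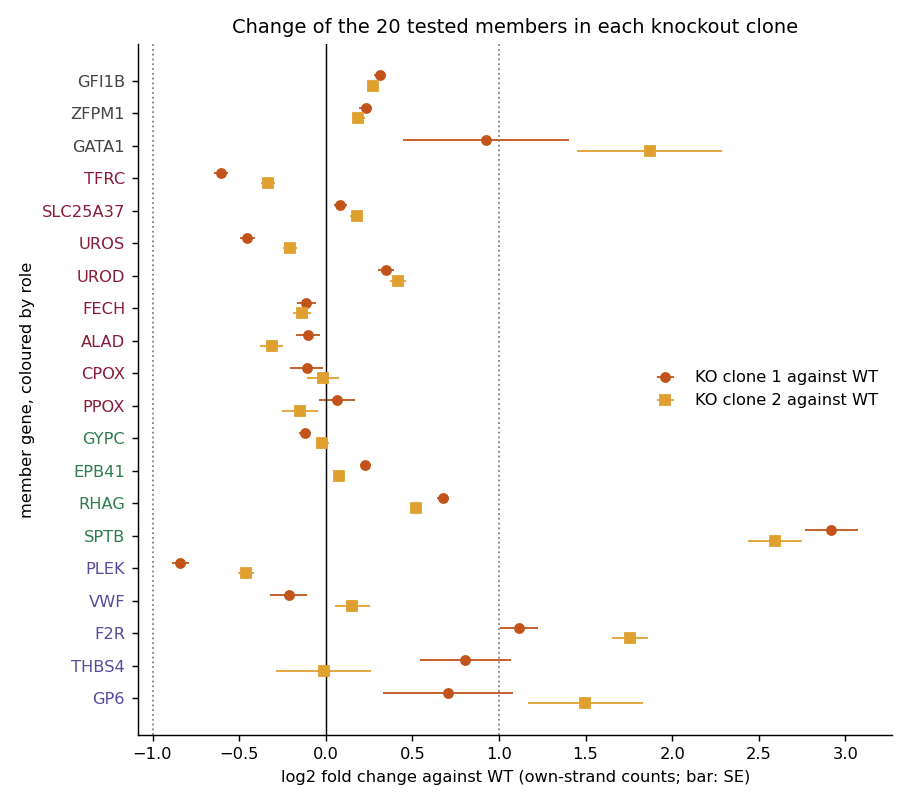
Log2 fold change against WT of the 20 tested members in each knockout clone (own-strand counts), with bars of 1 SE and dotted lines at the fold that a call asks for. SPTB is at 2.92 in clone 1 and 2.59 in clone 2, F2R is past the line in both, and PLEK and TFRC are below 0 in both.

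Among the platelet genes, F2R rose and PLEK fell in both clones, and both changes differed in size between the clones. F2R (ENSG00000181104, chromosome 5, 76716126 to 76735770), which encodes the thrombin receptor PAR1 of platelets and endothelial cells, was at 9.04, 7.20 and 8.44 CPM in clone 1, 13.2, 11.8 and 13.5 CPM in clone 2 and 4.10, 3.66 and 3.61 CPM in WT. The 3 groups did not overlap, and clone 2 was the highest. F2R rose 2.16-fold in clone 1 (log2 1.11, standard error 0.109, adjusted p = 2.79e-11) and 3.38-fold in clone 2 (log2 1.76, standard error 0.103, adjusted p = 5.81e-18). PLEK (ENSG00000115956, chromosome 2, 68365282 to 68397453), pleckstrin, the main protein kinase C substrate of platelets, was at 33.2, 38.3 and 36.8 CPM in clone 1, 46.3, 48.2 and 46.7 CPM in clone 2 and 66.7, 65.4 and 61.9 CPM in WT. Clone 1 was the lowest group without overlap. PLEK fell by 0.84 in clone 1 (standard error 0.048, adjusted p = 1.48e-18) and by 0.46 in clone 2 (standard error 0.045, adjusted p = 4e-11).

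GP6 (ENSG00000088053, chromosome 19, 55013705 to 55038264) had 18, 17 and 18 counts in clone 1, 47, 33 and 42 in clone 2 and 15, 6 and 18 in WT. Scaled, this was 0.659, 0.528 and 0.552 CPM in clone 1, 1.14, 0.881 and 0.982 CPM in clone 2 and 0.391, 0.146 and 0.555 CPM in WT, so clone 2 lay above WT and clone 1 overlapped it. The log2 fold change was 1.50 in clone 2 (standard error 0.333, adjusted p = 0.000404) and 0.70 in clone 1 (standard error 0.376, adjusted p = 0.149). In clone 1 it reached 1.11 and was called without WT replicate 3, as was THBS4. THBS4, a thrombospondin, was at 1.50, 1.18 and 1.60 CPM in clone 1, 0.703, 0.827 and 0.888 CPM in clone 2 and 0.913, 0.488 and 1.08 CPM in WT. It rose by 0.81 in clone 1 (standard error 0.262, adjusted p = 0.013), whereas it was -0.01 in clone 2 (adjusted p = 0.983). VWF, the adhesive protein of platelets and endothelium, averaged 5.54 ± 0.259 CPM in clone 1, 7.14 ± 0.491 CPM in clone 2 and 6.42 ± 0.225 CPM in WT and passed the threshold against WT in neither clone.

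Counts of the defining products of platelets were near 0 in every library. PF4 had 2 counts and PPBP 4 counts over the 9 libraries, GP1BA had 1, GP9 had 8, and GP1BB had 0. All 959 exon bases of GP1BB are shared with another gene on its strand. Ambiguous pairs were left out, so the 0 of GP1BB cannot show whether its RNA was absent. PF4 shares 510 exon bases and PPBP 454 with another gene on their strand, so their counts may be too low. CD9, a tetraspanin of platelets and other cells, had 1 to 14 counts per library, and TUBB1, the platelet beta tubulin, and MYL9, a myosin light chain, had at most 6 and 2. Of 46 other platelet and megakaryocyte genes, 39 were tested, 0 were called higher and 1 was called lower in both clones, a count near the 1.3% and 3.04% of all genes. The gene called lower was CLU, which encodes a secreted chaperone held in platelet granules, at 3.28 ± 0.167 CPM in clone 1, 3.62 ± 0.36 CPM in clone 2 and 19.4 ± 1.86 CPM in WT, log2 fold changes of -2.56 in clone 1 and -2.42 in clone 2 (adjusted p = 2.4e-23 and 3.13e-23). The list's median was -0.01 in clone 1 and 0.01 in clone 2. Endothelial cells also express F2R and VWF, and their markers summed to 177 to 185 CPM in clone 1, 154 to 158 in clone 2 and 126 to 127 in WT. Of these 7 markers 5 were tested, and CDH5 was at 0 in every library. In both clones 1 was called higher and 0 lower, beside 1.3% and 3.04% of all genes. At the adjusted p, 2 of them rose and 1 fell in both clones, beside 8.52% and 11.0% of all genes. ESAM averaged 102 CPM in clone 1, 74.6 in clone 2 and 19.9 in WT, whereas EMCN averaged 73.3 CPM in clone 1, 73.6 in clone 2 and 101 in WT. Their part in the F2R result was not tested.

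The clones were also compared with each other. With edgeR 0 of the 20 tested members were called between clone 2 and clone 1, beside 2.82% of all genes, and DESeq2 also called 0. At an unadjusted p under 0.05 there were 14, beside 35.0% of all genes. At the adjusted p 6 members were higher in clone 2 and 5 were lower, beside 13.4% and 12.6%. F2R was higher in clone 2 by 0.64 (standard error 0.096, adjusted p = 1.05e-06), PLEK by 0.38 (standard error 0.048, adjusted p = 4.42e-08) and TFRC by 0.27 (standard error 0.04, adjusted p = 1.05e-06). RHAG and SPTB were lower in clone 2, with differences of -0.16 (standard error 0.033, adjusted p = 0.000329) and -0.32 (standard error 0.117, adjusted p = 0.036).

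For some members, whether they appeared expressed or were called turned on how strand was treated. The libraries kept strand: 92.0% to 92.3% of stranded counts lay on the gene's own strand. For 14 of the 20 tested members over 95% of stranded counts were on the own strand in every group, and for 11 of all 42 members under 50% were in at least 1 group. With unstranded counts, the counting that the authors' deposited table holds, 24 members passed the filter, the 20 above together with ALAS2, GP1BA, HBA1 and TUBB1. In clone 1 edgeR then called 0 members, beside 6.78% of all genes, with 13 at an unadjusted p under 0.05 (beside 39.1%) and 0 called by DESeq2. In clone 2 it called 2, GATA1 and F2R, beside 5.22%, and in the mean of both clones it called F2R alone, beside 5.81%, where DESeq2 called 2. Between the clones it called 0, beside 2.36%, with 12 at an unadjusted p under 0.05 (beside 30.4%) and 0 called by DESeq2. A call differed between the countings in at least 1 of the 4 comparisons for SPTB, GP6, GATA1 and F2R. These were SPTB and F2R in clone 1, SPTB and GP6 in clone 2, SPTB, GP6 and GATA1 in the mean, and none between the clones. Over all genes tested both ways, calls differed for 1.56% in clone 1, 1.25% in clone 2, 1.3% in the mean of both clones and 0.702% between the clones. Each share is for that comparison alone, and no share over the 4 comparisons together was computed.

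SPTB shows the widest gap. On the opposite strand of the gene it had 24.2, 22.9 and 22.9 CPM in clone 1, 21.6, 20.5 and 21.4 CPM in clone 2 and 23.7, 23.2 and 21.4 CPM in WT. There clone 1 lay above clone 2, and WT overlapped both. Its own strand held 21.9% of stranded counts in clone 1, 19.7% in clone 2 and 3.62% in WT. PLEKHG3, a protein-coding gene on the other strand (chromosome 14, 64704102 to 64750249), overlaps SPTB exons over 3408 bases and averaged 116 ± 2.49 CPM in clone 1, 112 ± 2.85 CPM in clone 2 and 112 ± 3.78 CPM in WT, with log2 fold changes of 0.05 in clone 1 and -0.0027 in clone 2 (adjusted p = 0.287 and 0.966). The unstranded counting leaves out pairs that overlap exons of both genes, so the strands can sum to more than it. How much of the own-strand rise of SPTB lies in those pairs was not tested. Unstranded, SPTB was at 9.11, 8.57 and 8.13 CPM in clone 1, 9.04, 7.71 and 8.02 CPM in clone 2 and 7.41, 7.22 and 6.78 CPM in WT. Its unstranded log2 fold change was 0.26 in clone 1 (standard error 0.097, adjusted p = 0.0347) and 0.21 in clone 2 (standard error 0.095, adjusted p = 0.111). The authors' deposited table gives SPTB a log2 fold change of 0.24 (adjusted p = 0.0669) for both clones together.

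**Figure D3:**
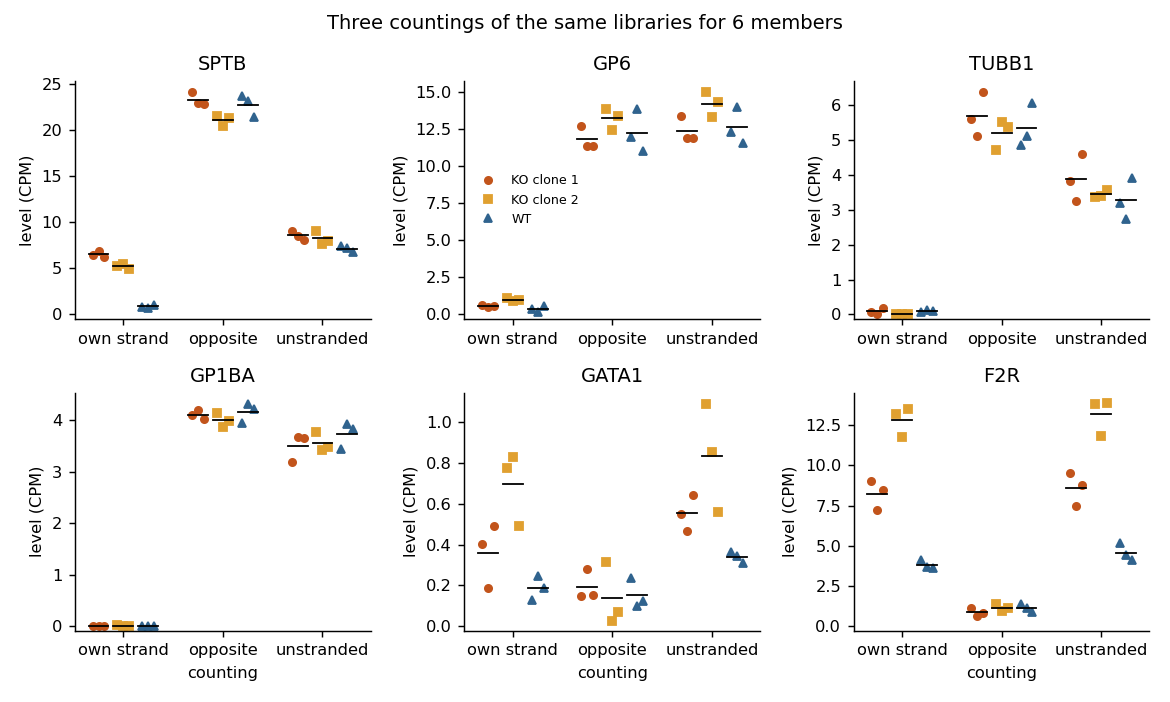
Level (CPM) of 6 members on their own strand, on the opposite strand and without regard to strand, for 9 libraries with a bar at each group mean. SPTB and GP6 differ between groups on the own strand but carry most of their signal on the opposite strand, and TUBB1 and GP1BA have almost none on their own strand.

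GP6 was similar. Its own strand held 4.67%, 7.05% and 2.74% of stranded counts in clone 1, clone 2 and WT. The opposite strand carried 11.3 to 12.7 CPM in clone 1, 12.4 to 13.8 CPM in clone 2 and 11.0 to 13.8 CPM in WT. The long non-coding RNA gene GP6-AS1 lies on that strand and shares 44 exon bases with GP6. GP6-AS1 itself averaged 14.0, 14.8 and 13.7 CPM and passed the threshold in neither clone (log2 0.03 and 0.11, adjusted p = 0.805 and 0.297). A different long non-coding RNA gene overlaps GP6 on its own strand over 270 exon bases. With unstranded counts GP6 was at 0.17 in clone 2 (adjusted p = 0.144) and -0.04 in clone 1 (adjusted p = 0.796), and the authors' deposited table gives 0.08 (adjusted p = 0.726). The 4 members that were tested only without strand had most of their stranded counts on the other strand. TUBB1 had 153 to 230 opposite-strand counts per library. ATP5F1E, a subunit gene of ATP synthase on the other strand, overlaps it over 1180 exon bases. The unstranded counting, which leaves out pairs over exons of both genes, kept 105 to 153 counts per library for TUBB1. GP1BA had 112 to 177 opposite-strand counts, or 3.87 to 4.31 CPM, and overlaps CHRNE, an acetylcholine receptor gene, over 97 exon bases. CHRNE itself was lower, averaging 1.33 CPM in clone 1, 1.14 in clone 2 and 1.22 in WT. The sources of the opposite-strand counts of GP6, TUBB1 and GP1BA were not tested. HBA1 had 6 to 19 opposite-strand counts, and ALAS2 had 6 to 17.

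GATA1 and F2R kept their direction. GATA1 unstranded was at 1.28 in clone 2 (adjusted p = 0.00233) and 0.99 in the mean of both clones (adjusted p = 0.0108), just short of the fold that a call asks for, and the authors' deposited table gives 1.05 (adjusted p = 0.0404). No annotated gene overlaps GATA1 in GENCODE release 44, and it had 1 to 13 opposite-strand counts per library. F2R unstranded was at 0.90 in clone 1 (adjusted p = 3.49e-09) and 1.52 in clone 2 (adjusted p = 1.12e-16), and the authors' deposited table gives 1.26 (adjusted p = 4.69e-10). F2R had 90.6% of its stranded counts on its own strand in clone 1, 91.7% in clone 2 and 77.1% in WT, and a non-coding RNA gene overlaps it over 39 exon bases on the other strand. For the abundant members the countings gave the same picture: RHAG was at 0.67 and 0.52 unstranded, TFRC at -0.61 and -0.34, and PLEK at -0.84 and -0.46.

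**Figure D4:**
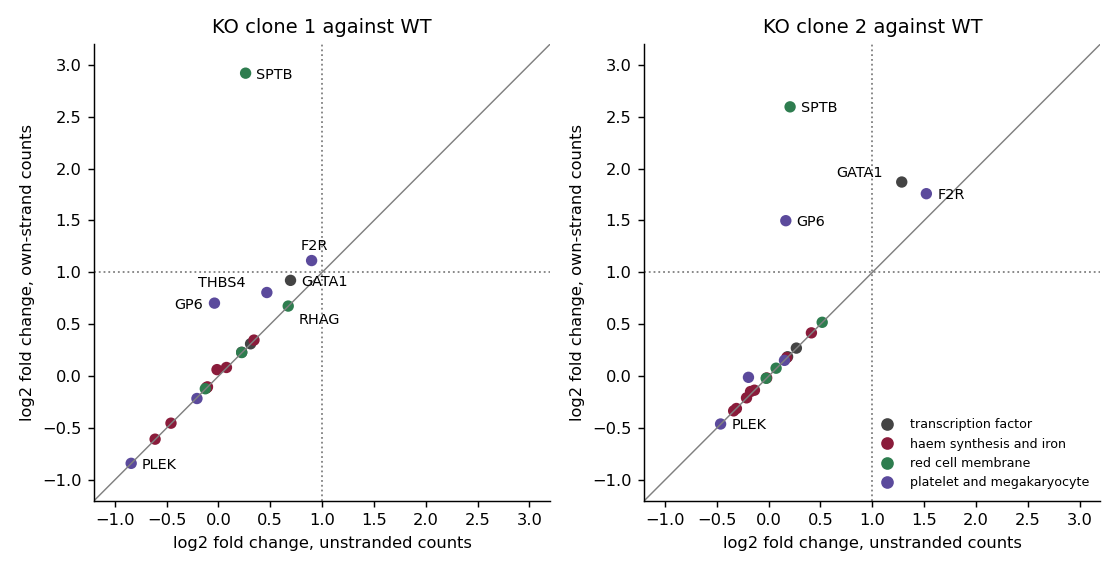
Log2 fold change of the 20 tested members with own-strand counts (vertical axis) against that with unstranded counts (horizontal axis) in each clone, with the line of equality and dotted lines at 1. Most members lie on the line, SPTB lies far above it at 2.92 against 0.26 in clone 1 and 2.59 against 0.21 in clone 2, and GP6 lies above it in both.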

How the data were processed

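Raw counts of read pairs per gene were deposited for 9 libraries of KG-1a cells, made by the authors with STAR on GRCh38, per the submitters' processing notes; versions and annotation are not given in the sources used here. The files hold an unstranded counting and one for each strand. The log2 fold changes and adjusted p-values in the authors' deposited table were made with DESeq2 for both clones together, per the submitters' processing notes, and its raw counts equal the unstranded counting in all 9 libraries.

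Rows that name no gene (unmapped, multi-mapping, without a feature or ambiguous) were left out, so that 25.9% to 29.6% of all pairs remained. Own-strand counts were fitted with edgeR 4.0.16 in R 4.3.3: filterByExpr by group, TMM scaling, 1 coefficient per group and robust quasi-likelihood F tests. Standard errors were derived from each log2 fold change and its F value, and intervals use a t quantile at 6 degrees of freedom. CPM is the count over the scaled library total times 1000000. Positions and overlaps are from GENCODE release 44, with 60463 of 60605 identifiers found. Alternatives were unstranded counts, RLE scaling, no filter, DESeq2 1.42.0, a replicate block and each library left out. The fit was tested on simulated data.

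Members and lists were chosen with earlier results of these data known. Named were members called in any comparison, past the adjusted p in both clones, or called differently by the countings, their overlapping genes, PRMT2, TAL1 and GATA2, and from each list up to 4 genes called in both clones. A further such gene is not reported here. Other members named were chosen after their values were seen.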

Additional observations from a re-analysis of the deposited data

Results flagged for a closer look

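For 11 members the change in clone 2 and the change in clone 1 differed at an adjusted p under 0.05 in edgeR's test of clone 2 against clone 1, over 20655 genes. Both changes use the same WT libraries. On the log2 scale, clone 2 minus clone 1 was 0.38 for PLEK (adjusted p = 4.42e-08), 0.27 for TFRC (adjusted p = 1.05e-06), 0.64 for F2R (adjusted p = 1.05e-06), 0.24 for UROS (adjusted p = 1.82e-05), 0.37 for VWF (adjusted p = 0.00712) and 0.10 for GYPC (adjusted p = 0.034). The difference was -0.15 for EPB41 (adjusted p = 0.000325), -0.16 for RHAG (adjusted p = 0.000329), -0.82 for THBS4 (adjusted p = 0.0151), -0.21 for ALAD (adjusted p = 0.0186) and -0.32 for SPTB (adjusted p = 0.036). Of all tested genes, 13.4% were higher and 12.6% lower in clone 2 by the same threshold. None of the 11 reached a log2 difference of 1.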

How the results depend on the processing

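With unstranded counts the number of members called was 0 in clone 1 (2 with own-strand counts), 2 in clone 2 (4), 1 in the mean of both clones (4) and 0 between the clones (0). RLE scaling, DESeq2 and the replicate block gave 2, 4, 4 and 0, and no filter on low counts gave 3, 4, 5 and 0, where GYPB, with 0 to 9 counts per library, was added as lower. RLE scaling moved no member across 0 or across the adjusted p. Leaving out 1 library at a time gave 2 to 4 in clone 1, 4 in clone 2, 3 to 4 in the mean and 0 to 1 between the clones. The 4 in clone 1 came without WT replicate 3 (GP6 and THBS4 added), the 3 in the mean without WT replicate 2 (GP6 at 0.70), and the 1 between clones without KO clone 1 replicate 3 (GATA1 at 1.26) or KO clone 2 replicate 3 (GATA1 at 1.15). Without KO clone 1 replicate 1 the counts were 2, 4, 4 and 0. The number of members whose call differed between countings was 4, with 2 to 5 when 1 library was left out, the 2 without WT replicate 1, 5 with no filter and 3 with DESeq2. The cause of these changes was not tested. Replicate numbers do not pair the samples: the correlation of same-numbered deviations lay between -0.0137 and 0.0122, and the block changed no count. GATA1 and GP6, with 5 to 47 counts per library, are limited by depth.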
